A study of Anopheles stephensi with 4 samples.

Results

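In adult females of the malaria mosquito Anopheles stephensi, 87 of 12340 reference genes were low in ovary relative to 3 other tissues. Their levels in fat body, midgut and Malpighian tubules lay within 3 times of each other and were at least 5 times that of ovary. Of the 87 genes, 24 met the same limits with each tissue's values scaled to the same sum. The 87 genes were chosen by their measured values. The lowest of the 3 tissues outside the ovary, on the scale of FPKM + 1, had to be at least 5 times the ovary, and the highest of the 3 had to lie below 3 times the lowest. FPKM is the number of sequenced fragments of a transcript relative to its length and to the size of the library. Levels, ratios to ovary and evenness are therefore given as descriptions of these libraries, with no test.

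The groups were fat body, midgut, Malpighian tubules and ovary, all dissected from sugar-fed adult females of the same laboratory rearing. No genotype, strain or treatment beyond the sugar diet is given for any group. Each tissue had 1 library, run on 2 lanes, so the values carry no spread between mosquitoes, and the number of animals pooled in a library is not given in the sources used here. The libraries held between 27490192 (midgut) and 36316831 (Malpighian tubules) estimated fragments. Fewer cells of a type and less RNA per cell cannot be told apart in such whole-tissue libraries.

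The fat body of an insect stores nutrients and secretes blood proteins, the midgut digests and absorbs the meal, and the Malpighian tubules produce urine and excrete waste. The ovary consists of follicles in which germ cells, the oocyte with its nurse cells, are wrapped in a layer of somatic follicle cells. In a female that has not fed on blood, the follicles rest before yolk is deposited. "Somatic" is used below as a short name for the 3 tissues outside the ovary, although the ovary holds somatic cells too.

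The files give gene identifiers without names, and 0 of the 12340 identifiers were found in the RefSeq table of 15394 genes of this species. No role can thus be given to any of the 87 genes, and no markers of cell types could be checked against the tissue labels. Identifiers are printed with their position on the scaffolds of the deposited annotation. At most 2 are given per described property, apart from small counts that are named in full.

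The 87 genes were well expressed outside the ovary. Their median level was 112 FPKM in fat body, 143 FPKM in midgut and 104 FPKM in the tubules, against 7.32 FPKM in ovary. The middle 50% of the genes lay between 42.4 and 220.4 FPKM in fat body, 65.6 and 266 FPKM in midgut, and 48.2 and 224 FPKM in Malpighian tubules, and between 2.78 and 21.6 FPKM in ovary. Over all 12340 reference genes, the medians were 4.62, 3.02, 4.06 and 4.92 FPKM in the same order. The members stood above the typical gene in the 3 somatic tissues, in part by choice, since the rule requires at least 4 FPKM there. Nothing is read from this distance. Their ovary median was of the same order as that of all genes, which include undetected ones. It lay below the median of 13.8 FPKM of the genes at 1 FPKM or more in ovary.

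Of the genes detected at 1 FPKM or more, the members above the tissue's median numbered 80 of 87 in fat body, 83 in midgut and 81 in Malpighian tubules, compared with 28 in ovary. The highest 10% of detected genes included 39 members in fat body, 33 in midgut and 40 in Malpighian tubules, but 6 in ovary. Together the members carried 2.18% of the fragments of fat body, 2.34% of midgut, 2.69% of Malpighian tubules and 0.343% of ovary.

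**Figure D1:**
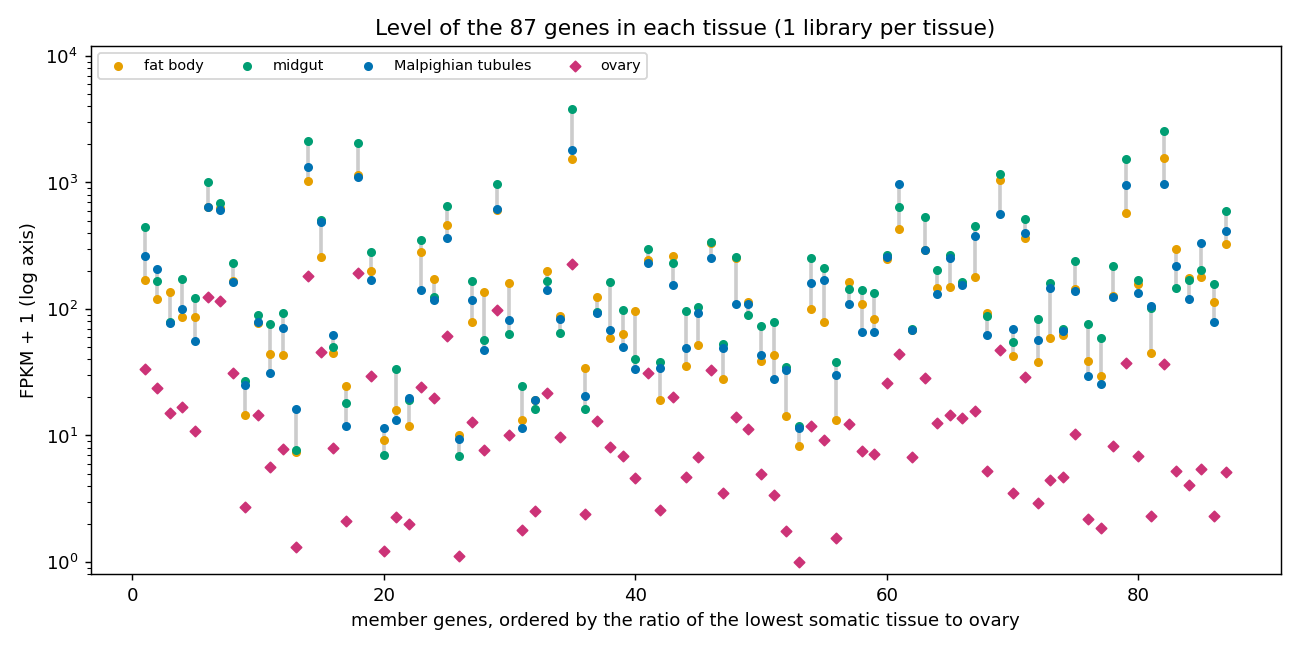
Level of each of the 87 genes as FPKM + 1 (log axis) in fat body, midgut, Malpighian tubules (circles, joined by a grey line) and ovary (diamonds), 1 library per tissue, ordered along the x axis by the ratio of the lowest somatic tissue to ovary. The ovary diamonds lie below the circles for every gene, as the choice requires, and the ratio runs from 5.02 on the left to 63.3 on the right.

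The lowest somatic level of a member ranged from 5.85 to 1524 FPKM, with a median of 78.3 FPKM. It was at least 100 FPKM for 38 genes, at least 500 FPKM for 9 and below 10 FPKM for 4. The 2 genes with the highest level in their lowest somatic tissue were also the 2 with the highest ovary levels. ASTEI09696 (scaffold_00101, 130835 to 141963, minus strand, 5 exons) stood at 1524 FPKM in fat body (the authors' bounds, summed over isoforms, 1474 to 1573), 3776 FPKM in midgut (3672 to 3880), 1811 FPKM in the tubules (1753 to 1870) and 227 FPKM in ovary (192 to 262). Its ovary level was 14.9% of that of fat body, the lowest somatic tissue. ASTEI10685 (scaffold_00152, 31260 to 31904, plus strand, 2 exons) had 1154 FPKM in fat body, 2047 FPKM in midgut, 1097 FPKM in the tubules and 190.2 FPKM in ovary, or 17.3% of the lowest somatic tissue. For both genes the bounds in ovary lay below those of every other tissue, and both ovary levels were among the highest 10% of genes detected in ovary.

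Ovary levels were low relative to the other tissues but seldom nil. Of the 87 genes, 79 reached 1 FPKM in ovary, 38 reached 10 FPKM and 5 reached 100 FPKM. The remaining ovary level was a median of 10.2% of the lowest somatic tissue, with quartiles of 6.61% and 14.9% and a highest value of 19.4%. It was close to this median among the 44 genes of lower somatic level (9.46%) and the 43 of higher level (11.9%). The ovary values rested on a median of 644 estimated fragments per gene. Under 100 fragments were estimated for 10 genes and under 20 for 3.

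The largest ratio to ovary was found for ASTEI01333 (scaffold_00005, 1334012 to 1335544, plus strand, 3 exons). It stood at 323 FPKM in fat body (254 to 391), 595 FPKM in midgut (558 to 631), 409 FPKM in the tubules (382 to 436) and 4.11 FPKM in ovary (0.531 to 8.24). The ratio on the FPKM + 1 scale was 63.3, and the ovary kept 1.27% of the fat body level. ASTEI03053 (scaffold_00012, 2906928 to 2910932, plus strand, 3 exons) followed with 113 FPKM in fat body, 155 FPKM in midgut, 78.3 FPKM in the tubules and 1.32 FPKM in ovary, a ratio of 34.2. Their ovary values rested on an estimated 238 and 187 fragments. Among all members the median ratio was 7.63. It was at least 6 for 62 genes, at least 10 for 26 and at least 20 for 6.

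The lowest ovary level was that of ASTEI01207 (scaffold_00004, 4192655 to 4193544, plus strand, 3 exons), which was listed at 0 in ovary with an upper bound of 0.186 FPKM. It stood at 7.32 FPKM in fat body, 10.8 FPKM in midgut and 10.5 FPKM in the tubules, so its ratio of 8.32 is set by the added 1 FPKM. ASTEI11425 (scaffold_02125, 143 to 848, minus strand, 2 exons), the only reference gene on its scaffold, had 0.114 FPKM in ovary from an estimated 3 fragments, and between 5.85 FPKM (midgut) and 9.04 FPKM (fat body) elsewhere. Both belong to the weakly expressed end of the members, where an added 1 FPKM understates the difference.

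Values close to the limits show how sharp the choice is. Just inside the ratio of 5 were ASTEI07055 (scaffold_00048, 11399 to 11923, plus strand), at 169, 443 and 259 FPKM in fat body, midgut and Malpighian tubules and 32.8 FPKM in ovary (ratio 5.02), and ASTEI05032, at 118, 165 and 206 FPKM and 22.5 FPKM (ratio 5.07). Just outside were ASTEI04735 (scaffold_00025, 799940 to 801436, minus strand), at 87.3, 79.9, 87.1 and 15.2 FPKM (ratio 4.99), and ASTEI11624 (scaffold_07279, 625 to 933, minus strand), at 6.25, 3.98, 6.02 and 0 FPKM (ratio 4.98). For ASTEI05032 the authors' bounds in fat body were wide, 42.5 to 209 FPKM. The upper ovary bound lay below the lowest somatic lower bound for all 87 genes, but a ratio of 5 between these bounds was kept by 38.

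**Figure D2:**
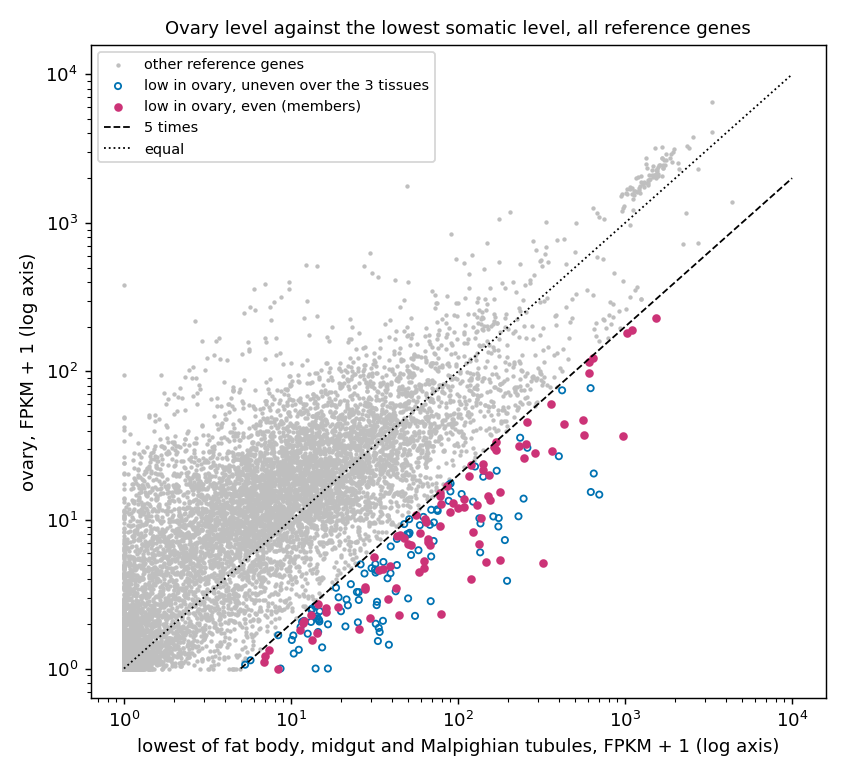
Ovary level against the lowest level among fat body, midgut and Malpighian tubules, both as FPKM + 1 on log axes, for all 12340 reference genes. The 87 even genes (filled) and the 106 uneven genes (open) lie below the dashed line of 5 times, while the other genes (grey) gather around the dotted line of equal levels.

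The 87 genes were 0.705% of the reference genes tested against both limits. The ratio limit alone was passed by 193 genes, 1.56% of all. The evenness limit alone was met by 73.3% of the 5171 genes with at least 4 FPKM in their lowest somatic tissue, the lowest level a member can have. Since the rule used these values, nothing is read from the shares. Of the 106 genes that were low in ovary but uneven, 62 had their highest level in midgut, 28 in Malpighian tubules and 16 in fat body. These counts use the deposited values and were not taken with other scalings. Midgut also led in 47.2% of the 3704 genes that met the evenness limit at 4 FPKM or more and were not low in ovary. For the members, the leading tissue changed with scaling, as given below.

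Turning the rule on each of the other tissues found fewer genes with the deposited values. With the tissue at least 5 times below the lowest of the other 3, and these 3 within 3 times of each other, 19 genes were low in midgut (0.154%), 3 in fat body (0.0243%) and 1 in Malpighian tubules (0.0081%). The order of the first 2 tissues depended on scaling. With each tissue's values scaled to the same sum, 56 genes were low in midgut, 38 in ovary, 10 in fat body and 0 in Malpighian tubules. With median-of-ratios scaling the order was that of the deposited values, with 80 in ovary, 23 in midgut, 4 in fat body and 0 in Malpighian tubules.

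Among the 3 somatic tissues the members were fairly even by the terms of the rule, and midgut was most often the highest. The highest of the 3 tissues was a median of 1.95 times the lowest. It was below 1.5 times for 21 genes, below 2 times for 48 and below 2.5 times for 70 of 87. A set of 3704 comparison genes met the same evenness limit and had at least 4 FPKM in the lowest somatic tissue, but were not low in ovary. Their median was 1.60 times, and 39.6% of them lay below 1.5 times, against 24.1% of the members. With equal sums the medians were 2.00 for the members and 2.03 for the comparison genes. The members also had higher levels, with a median of 78.3 FPKM in the lowest somatic tissue against 14.4 FPKM for the comparison genes. Both sets were chosen by this level relative to ovary, so nothing is read from the difference.

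With the deposited values, midgut held the highest level of 60 members, fat body of 18 and Malpighian tubules of 9. Among the comparison genes midgut led in 47.2%. The median member had 1.43 times as much in midgut as in fat body and 1.31 times as much as in Malpighian tubules, while fat body and Malpighian tubules differed by a median of 1.01 times. For the comparison genes midgut exceeded both by less, with a median of 1.15 times over Malpighian tubules, and fat body and Malpighian tubules differed by 1.04 times. The leading tissue depended on scaling. With equal sums Malpighian tubules led in 67 members and midgut in 9, and with median-of-ratios scaling midgut led in 41 and each of the other 2 tissues in 23.

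The most even member was ASTEI092504 (scaffold_00086, 534132 to 544981, minus strand, 11 exons), at 67.2 FPKM in fat body, 68.6 FPKM in midgut and 67.6 FPKM in the tubules, and 5.78 FPKM in ovary. ASTEI06391 (scaffold_00039, 1462755 to 1467663, plus strand, 2 exons) was next, at 158, 162 and 153 FPKM, and 12.7 FPKM in ovary. Within each gene the authors' bounds of the 3 somatic tissues overlapped. The least even were ASTEI00269 (scaffold_00001, 4307741 to 4309223, plus strand), at 12.4 FPKM in fat body, 36.8 FPKM in midgut and 29.2 FPKM in the tubules, and ASTEI08310 (scaffold_00065, 802206 to 813828, minus strand), at 136, 55.8 and 46.2 FPKM in that order. The first was thus lowest in fat body and the second highest there, with 2.98 and 2.93 times between the extremes. Just outside the limit of 3 were ASTEI02012, at 24.4, 61.2 and 73.4 FPKM, and ASTEI09120, at 68.1, 205 and 123 FPKM in fat body, midgut and Malpighian tubules.

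Scaling decided how many genes met the rule. The deposited FPKM summed to 935008 in fat body, 1272696 in midgut, 603002 in Malpighian tubules and 452542 in ovary. Scaling the columns to equal sums raised ovary by 0.85 and Malpighian tubules by 0.44 on the log2 scale, and lowered midgut by 0.64 and fat body by 0.20. Both limits were then met by 38 genes (0.308%), of which 24 were among the 87. The other 14 had failed a limit with the deposited values, and 13 of them had already passed the ratio to ovary. Of the 63 members lost, 48 failed the ratio only, 7 the evenness only and 8 both.

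A ratio of 5 is larger than any shift between tissues by this scaling, so the ovary had to stay the lowest tissue for all 87 genes. The median ratio fell from 7.63 to 4.18, and it ranged from 1.90 to 33.6. It was at least 2 for 86 genes, at least 3 for 66 and at least 5 for 31. The shift applied to genes in general: over the 8923 genes that reached 1 FPKM in at least 1 tissue, the median log2 ratio of the lowest somatic tissue to ovary was -0.49 with deposited values and -1.42 with equal sums, while that of the members was 2.93 and 2.06. The members' medians are high by choice, so nothing is read from their distance to all genes. Median-of-ratios scaling over 4395 genes moved the tissues by at most 0.18 on the log2 scale, and 76 of the 87 genes met the rule under it.

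Of the 6 members with a ratio of at least 20, 4 still met both limits with equal sums, among them the 2 of the largest ratios. ASTEI01333 stood at 281 FPKM in fat body, 381 FPKM in midgut, 553 FPKM in the tubules and 7.41 FPKM in ovary after this scaling, a ratio of 33.6. ASTEI03053 stood at 98.9, 99.5, 106 and 2.38 FPKM, a ratio of 29.6, and its highest somatic tissue was 1.07 times its lowest. ASTEI10046, the third by ratio, failed the evenness limit with equal sums, at 156, 129, 452 and 7.91 FPKM. The 24 genes that held had a median of 6.02 FPKM in ovary and 113 FPKM in the lowest somatic tissue with deposited values. The 63 that did not hold had medians of 9.17 and 77.1 FPKM.

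**Figure D3:**
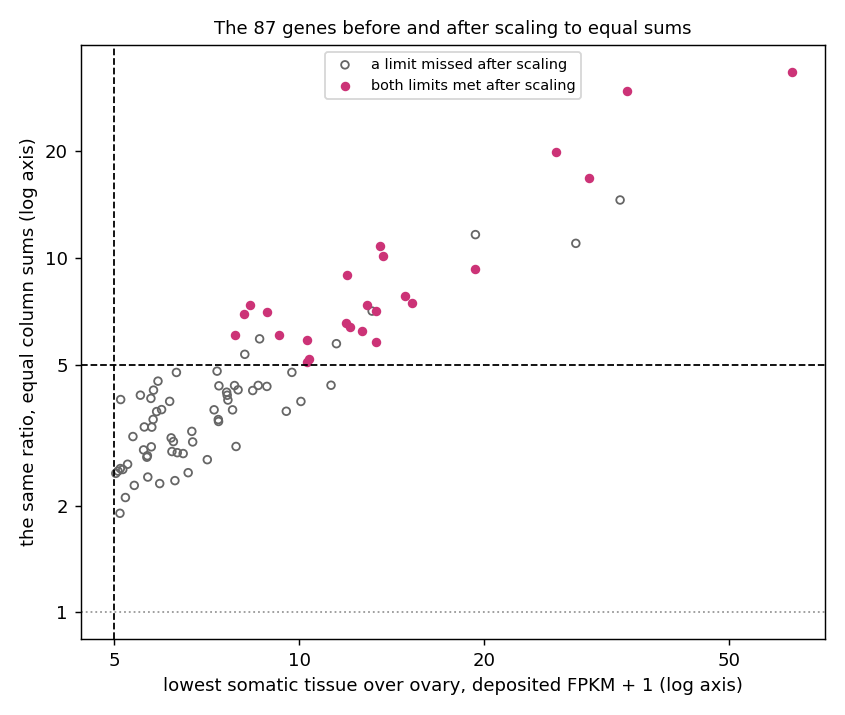
Ratio of the lowest somatic tissue to ovary on the FPKM + 1 scale for the 87 genes, with deposited values on the x axis and with equal column sums on the y axis, both log axes; dashed lines mark 5 and the dotted line marks 1. All genes stay above 1, 31 stay at or above 5, and 24 (filled) also keep the evenness limit.

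The structure of the genes was not used by the rule. The annotated models are mostly coding, since 88.8% of all models and 80.5% of those of the members have a length that is a multiple of 3, so lengths and gaps largely leave out UTRs, somewhat less often so for the members. By these models the 87 genes had a median of 3 exons and a length of 1194 bases, against 3 exons and 1300.5 bases for the comparison genes and 3 exons and 1185.5 bases for all reference genes. Models with 1 exon made up 9 of the 87 (10.3%, 95% Wilson interval 5.54 to 18.5), compared with 10.6% of the comparison genes and 15.0% of all genes. Models with 2 or 3 exons made up 44.8%, 43.8% and 42.6% in the 3 sets, and 10 or more exons were found in 7 members (8.05%), 5.43% of the comparison genes and 6.21% of all. For the main isoform, that of highest mean FPKM in the 3 somatic tissues, the median length was 1398 bases for members, 1703.5 bases for comparison genes and 1431 bases for all genes, with 3 exons in each set. The members' main isoforms were thus shorter by median than those of the comparison genes and close to those of all genes. The comparison genes were not matched for level, with a median of 14.4 FPKM in the lowest somatic tissue against 78.3 FPKM for members. FPKM is itself relative to length, so nothing is read from the difference in length. Wilson intervals cover counting error only and treat genes as independent.

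Intron length was compared in the same way. An intron of 1000 bases or more was present in 29 of the 87 models (33.3%, 95% Wilson interval 24.3 to 43.8), in 23.0% of the comparison genes (21.6 to 24.4) and in 27.2% of all genes (26.4 to 28.0). The interval of the members includes the share of all genes and overlaps that of the comparison genes at its edge. The members with the most exons were ASTEI02435 (scaffold_00009, 2241802 to 2259078, plus strand), with 19 exons over the longest span of any member, 17277 bases, and ASTEI09203 (scaffold_00085, 161146 to 169041, minus strand), with 16 exons. ASTEI02435 stood at 10.8, 18.1 and 18.7 FPKM in fat body, midgut and Malpighian tubules and 1.01 FPKM in ovary. ASTEI09203 stood at 61.8, 67.9 and 65.5 FPKM and 3.72 FPKM. The next longest span, 16534 bases, was that of ASTEI05031 (scaffold_00027, 1437598 to 1454131, minus strand), of which 15815 bases were 1 intron between its 3 exons.

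**Figure D4:**
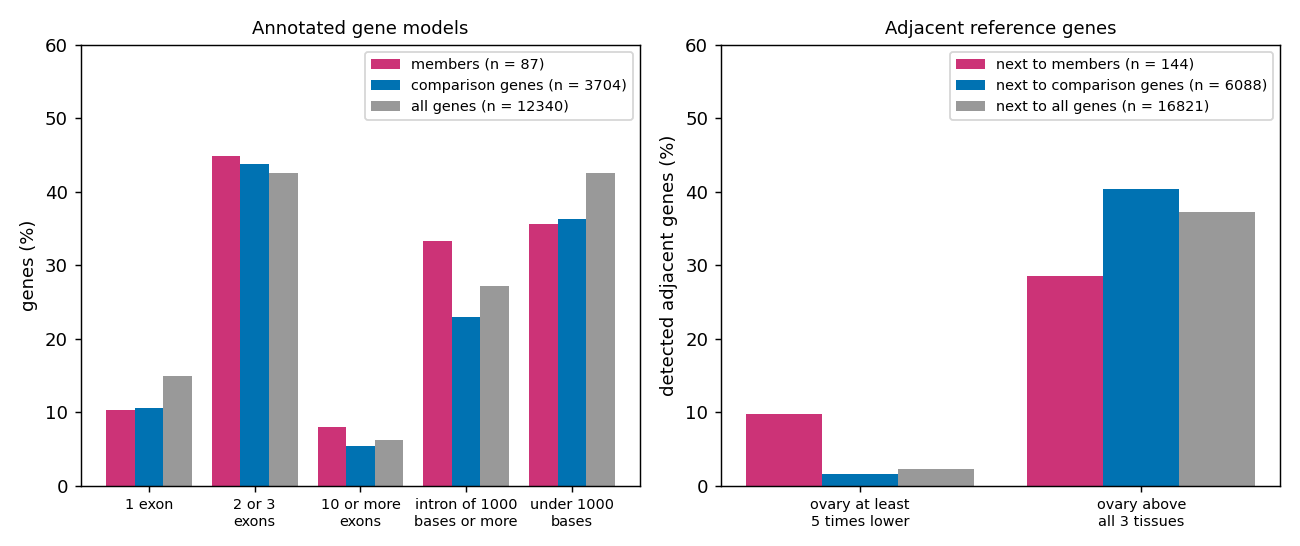
Left, percent of annotated gene models with the given exon number, intron or length among the 87 members, 3704 comparison genes and all 12340 genes. Right, percent of the detected genes adjacent to each set that were at least 5 times lower in ovary than in the lowest somatic tissue (9.72% next to members) or highest in ovary (28.5% next to members). Neighbours that are members themselves are included.

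Isoform number was similar to that of the comparison genes and higher than over all genes. Of the members 48 (55.2%, 44.7 to 65.2) had 2 or more summed isoforms, against 56.2% of the comparison genes and 41.1% of all genes. The main isoform was the annotated one in 55 members, an assembled splice variant in 28 and an assembled transcript overlapping the exons in 4. Of 185 member isoforms at a mean of 1 FPKM or more in the somatic tissues, 173 were lower in ovary than in each of the 3, and 0 were higher in ovary than in all 3. Nothing is read from these counts, because 39 members had a single summed isoform, whose level is the value the rule used, and in the others the leading isoforms must be low for the sum to be low.

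In 45 members with several isoforms and at least 1 FPKM in ovary, the main isoform of the somatic tissues also led in ovary in 31 (68.9%, 54.3 to 80.5). The comparison genes kept it in 80.6% (78.9 to 82.3), a share just above the members' interval, although the 2 intervals overlap at their edges. The median ovary level was 7.32 FPKM over all members and 21.8 FPKM over all comparison genes. Whether this difference in level affects the share was not tested. The largest change in share was in ASTEI03053. Its assembled isoform ANSTF.2857.1 (2906840 to 2908611, 2 exons) held 83.3% of the mean somatic level and 8.89% in ovary. It stood at 106 FPKM in fat body, 122 FPKM in midgut, 61.3 FPKM in the tubules and 0.117 FPKM in ovary, while the annotated isoform stood at 7.16, 33.7 and 17.0 FPKM in the somatic tissues and made up most of the ovary level. In ASTEI08826 (scaffold_00076, 440572 to 447981, minus strand), ANSTF.8152.1 held 41.6% of the somatic level and 2.26% in ovary, but it was not the leading isoform in fat body, where it stood at 10.1 FPKM against 107 FPKM for ANSTF.8152.4.

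The 87 genes were spread over 55 scaffolds, and 36 scaffolds held 1 each. The most, 8 genes, lay on scaffold_00005, which has 402 reference genes. Members next to each other on a scaffold formed 4 pairs, which are all named here after their values were seen. ASTEI02435 and ASTEI02436 lie on the same strand 63 bases apart, and ASTEI06390 and ASTEI06391 on the same strand 11202 bases apart. In each of these 2 pairs both genes belong to 1 assembled gene. ANSTF.2325.1 (2241802 to 2261040), which carries 100% of the level of ASTEI02435, extends over the whole of ASTEI02436 (2259142 to 2260829). ANSTF.5967.1 and ANSTF.5967.2, with most of the level of ASTEI06390, extend over the whole of ASTEI06391 (1462755 to 1467663). The fragments in these 2 pairs may thus not have been fully separated, and whether they are separate genes was not tested. By their annotated models, ASTEI09202 and ASTEI09203 face each other with their ends 835 bases apart, and ASTEI05031 and ASTEI05032 with their starts 24486 bases apart. The assembled main isoforms of the latter pair start closer together, at 1456257 (ANSTF.4681.1, ASTEI05031) and 1465654 (ANSTF.4682.4, ASTEI05032).

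The levels within these pairs differed. For ASTEI02435 with ASTEI02436 and ASTEI06390 with ASTEI06391 they come from transcript models that share a span. ASTEI02436 stood at 149, 267 and 253 FPKM in fat body, midgut and Malpighian tubules and 13.5 FPKM in ovary, over 10 times the FPKM of ASTEI02435 in every tissue. ASTEI09202 stood at 257, 505 and 486 FPKM and 44.5 FPKM, above its neighbour ASTEI09203 in every tissue. ASTEI06390 stood at 77.1, 88.6 and 78.5 FPKM and 13.5 FPKM, and ASTEI05031 at 263, 231 and 153 FPKM and 19.2 FPKM. In ASTEI06390 and ASTEI06391 the ovary levels were similar while the somatic levels were not.

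Genes adjacent to members were mostly not low in ovary. Of 170 relations between a member and an adjacent reference gene, 144 involved a neighbour at 1 FPKM or more in any tissue. In 14 of these (9.72%) the neighbour was at least 5 times lower in ovary, against 1.54% of the neighbours of comparison genes and 2.22% over all genes. The pairs of adjacent members account for 8 of the 14, including the pairs in which transcript models of 1 gene extend over the other. Among the 136 detected neighbours that were no members, 6 (4.41%) passed this ratio. With equal sums 5 of the 144 relations (3.47%) passed it, 3 of them with neighbours that were no members, against 0.542% for the comparison genes and 0.91% over all genes.

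The 6 neighbours that were low in ovary without being members failed the evenness limit, and all 6 lay on the 5′ side of the member. The adjacent starts faced each other in 3 of them, against 50 of all 170 relations of members (29.4%). Facing starts lie on the 5′ side by definition, and with 6 cases nothing is read from either count. ASTEI01170 (scaffold_00004, 3193093 to 3193542, minus strand), 2821 bases from ASTEI01171, stood at 625 FPKM in fat body, 8953 FPKM in midgut, 246 FPKM in the tubules and 12.9 FPKM in ovary. ASTEI01171 (3196364 to 3197018, plus strand) stood at 1567, 2540, 969 and 36.0 FPKM. ASTEI04835 (scaffold_00026, 544579 to 545479, plus strand), 2549 bases from ASTEI048280, stood at 173, 833, 285 and 8.04 FPKM. These neighbours, named after their values were seen for the highest ratios, were highest in midgut, whereas the adjacent member was within 3 times over the 3 tissues.

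In the measures of ovary level that follow, member neighbours were left out of the members' own neighbours, since the rule sets their values. They were not left out of the neighbours of comparison genes or of all genes. The ovary was the highest tissue in 30.1% of the 136 detected neighbours that were no members, 40.4% of those of comparison genes and 37.3% over all genes. The median log2 ratio of the lowest somatic tissue to ovary was -0.42 for these neighbours, -0.54 for those of comparison genes and -0.49 over all. Over all adjacent genes, members included, the median gap was 2341 bases for members, 1698 bases for comparison genes and 3088.5 bases over all genes. On the 5′ side it was 2821 bases for members and 1730 bases for comparison genes, and on the 3′ side 1758 and 1666 bases.

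The pattern was rare both among assembled loci outside the reference genes and among the reference genes. By the same limits 9 of 2432 intergenic loci (0.37%) were low in ovary and even elsewhere, against 0.705% of the reference genes. The ratio to ovary alone was passed by 15 of the 2237 intergenic loci at 1 FPKM or more. With counts this small nothing is read from the shares. Within 10000 bases of the 87 genes lay 15 expressed intergenic loci, of which 2 passed the ratio to ovary and 1 also the evenness limit. That locus, ANSTF.1393 (scaffold_00005, 2488549 to 2491391, plus strand, 1 exon), lies 700 bases before the start of the member ASTEI01456 (2492092 to 2498249, plus strand). ANSTF.1393 stood at 4495 FPKM in fat body, 7577 FPKM in midgut, 3383 FPKM in the tubules and 606 FPKM in ovary, and ASTEI01456 at 1041, 1170, 562 and 46.1 FPKM. The other, ANSTF.1848 (scaffold_00007, 396045 to 396984, minus strand), lies 516 bases past the end of ASTEI01917 (397501 to 397899, minus strand). It stood at 61.2, 202, 134 and 1.46 FPKM, against 8.23, 6.02, 10.5 and 0.215 FPKM for the gene. Both loci are on the strand of the nearby gene and were higher than it in every tissue.

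How fragments were assigned limits some members. Of the 87 genes, 12 share an assembled gene with another reference gene, 21 are overlapped by a transcript model that is not on their strand and 3 overlap another reference model, which left 57 with none of these. Whether the libraries preserved strand is not given in the sources used here. Genes with near-identical copies could not be identified without sequence, and none of the summed transcripts of the 87 genes had a failed estimate.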

How the data were processed

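RNA of 4 tissues was sequenced in paired-end libraries, 1 per tissue. StringTie 1.2.1, HISAT2, Cuffdiff and CASAVA 1.8 are named, without roles, in the submitters' processing notes; the genome build is not given in the sources used here. The authors deposited FPKM per transcript with bounds, per the file headers, and a column named count that is a scaled signal and not a raw count. Low values of that deposited signal were sums of 2 steps in 98.3% to 99.0% of cases within 0.1%; fragments were estimated as the signal divided by the mean step, a step being shared by at least 50 transcripts. Positions came from the deposited annotation (other values: starts and ends, per the file headers).

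FPKM were summed per gene over annotated, splice-variant, exon-overlapping and single-exon classes. The class column of the FPKM table is empty, so classes were joined from the annotation. The pseudocount was 1 FPKM. Python 3.11.15, pandas 2.3.3, scipy 1.17.1 and matplotlib 3.10.9 were used, and the rule was tested on simulated data. With 1 library per tissue no test was run. The members, limits and alternatives were chosen with earlier results of these data known. Named genes followed a rule of at most 2 per property: highest somatic level, largest ratio, most and least even, lowest and highest ovary level, nearest each limit, most exons, longest span, adjacent pairs, isoform share, and largest ratio with equal sums. The lists repeating the FPKM by class were not used here.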

Additional observations from a re-analysis of the deposited data

Results flagged for a closer look

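Signal appeared in transcripts whose class kept them out of the gene sums. Of 10 such transcripts naming a member, 9 reached 1 FPKM. The highest was ANSTF.3193.1 (scaffold_00014, 2418516 to 2418737, plus strand, 1 exon), at 516 FPKM in fat body, 813 FPKM in midgut, 523 FPKM in the tubules and 102 FPKM in ovary. It is classed as opposite in strand to the member ASTEI03435 (2418734 to 2419424, minus strand), which stood at 607, 969, 620 and 96.5 FPKM. ANSTF.8494.1 (scaffold_00085, 160307 to 160792, minus strand, 1 exon) reached 535 FPKM in midgut, with 261 FPKM in fat body, 500.1 FPKM in the tubules and 48.5 FPKM in ovary. It is classed as opposite to ASTEI09202.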

How the results depend on the processing

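The count of 87 genes moved by over 1.5 times in 10 of 18 settings. It was 38 with equal sums, over all transcripts or over reference genes (24 shared with the 87 in each case), 38 with the authors' bounds in place of point values, 54 with a pseudocount of 5 FPKM, 143 with a ratio of 4, 26 with a ratio of 10 and 48 with an evenness limit of 2. Settings added after the data were seen gave 30 with ovary alone scaled to the mean somatic sum, 39 with each column rescaled to a fixed sum, as TPM are and 57 without overlapped or joined genes. The count stayed within 1.5 times of 87 in the other 8 settings, from 75 (annotated class alone, 59 shared) to 127 (evenness limit of 5). The members' median exon number was 3 in all 18 settings, their main isoform had a median of 1177 to 1533.5 bases, and the median ovary level was 6.01% to 14.9% of the lowest somatic tissue. The share of members whose nearest reference gene is a member was 9.30% and ranged from 0% to 17.0%, with 0% for both equal-sum settings, a ratio of 10, the authors' bounds, ovary alone scaled and the fixed sum. With 1 library per tissue, no replicate could be left out, and depth limits the 3 genes with under 20 ovary fragments.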

Other observations

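The transcripts classed as opposite in strand met the members at a short, repeated overlap. Of 7 such transcripts naming a member, 5 overlapped its annotated model by 4 bases, each at the 3′ end. Over the whole annotation, 95 of 264 transcripts of this class overlapped the named gene by 4 bases, 77 of them at its 3′ end. In 3 of the 5 cases at members the transcript had a ratio to ovary close to that of the gene: 5.02 against 6.24 for ASTEI03435, 5.31 against 5.66 for ASTEI09202 and 5.87 against 5.97 for ASTEI02536. In the other 2, at ASTEI05047 and ASTEI08302, the transcript's ratios were 0.919 and 0.268, against 5.75 and 8.40 for the gene. Whether these transcripts belong to the named gene, to its neighbour or to a unit of their own was not tested.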
